A study of Xiphophorus maculatus with 65 samples.

Results

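Skin of male platyfish (Xiphophorus maculatus) of the inbred strain JpA (Jp163A) was compared between fish 20 months and 13 months old. The libraries were chosen from the labels alone: JpA skin whose sample name carries the word 0 min (0pt in some names) or sham. These were 5 libraries of 20 months with the earlier label year and 4 libraries of 13 months with the later one. Together they are 9 of the 65 libraries of the series. Both words mark control experiments, and the labels state that none of these fish was treated. Of the 20-month libraries, replicates 22 and 24 are 0 min and replicates 14, 23 and 25 are sham. Of the 13-month libraries, replicates 1 and 2 are 0 min and replicates 3 and 4 are sham. The names of replicates 22 and 24 read 0pt, which was taken to mean 0 min. The series sequenced RNA from skin and liver of JpA and of a second inbred strain, JpB (Jp163B), to compare their transcriptomes. Fish were chilled to loss of gill movement before dissection, and the hour of sacrifice is given in the sample names of the 24-month JpA skin only, not in those of the 9 libraries compared here. The 20-month reads are shorter than the 13-month reads, so age, label year and read length cannot be told apart within JpA. No source states whether 20-month libraries with the same fish letter (replicates 22 and 23, and replicates 24 and 25) come from the same fish, so p-values measure the spread between these libraries, part of which may be technical. In whole skin, fewer cells of a type and less RNA per cell cannot be told apart.

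Fish skin is a living mucosal surface: a stratified epidermis of keratinocytes with mucous cells and ionocytes lies on a collagen-rich dermis that holds the bony scales, the pigment cells, nerves, vessels and immune cells. Scale-forming osteoblasts and pigment cells persist through adult life, and the skin of fish has its own circadian clock and immediate early genes are a set of transcription factors and phosphatases that cells induce soon after a stimulus. Roles given below are those known from mammals or zebrafish, since they were not studied in platyfish here.

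The 20-month libraries held 27235335 to 32974415 counts (median 29207418) and the 13-month libraries 60096072 to 77841034 counts (median 62160131.5). The 20 most abundant genes took 8.55% to 13.4% of the counts at 20 months and 12.6% to 14.1% at 13 months. A pair of libraries stood apart on a principal component analysis of log2 CPM, counts scaled to a library total of fixed size. They were the 20-month replicate 25 on the first component (34.2% of the variance) and the 13-month replicate 3 on the second (23.5%). The ages were not separated on the first component. There the 0 min libraries of both ages lay at -75.9 to -34.6 and the sham libraries at -27.9 to 186, without overlap. On the second component the 20-month libraries other than replicate 25 lay at 41.1 to 73.1. Replicate 25 was at -19.7 there, and the 13-month libraries were at -153 to 3.81. Pearson's r between libraries lay between 0.891 and 0.976 within 20 months, between 0.939 and 0.988 within 13 months and between 0.888 and 0.976 across ages. Markers of each main skin cell type were measured in part: 12 of 20 listed symbols for keratinocytes, 15 of 17 for melanophores, 11 of 24 for scales and 10 of 16 for fibroblasts. The 12 keratinocyte genes summed to 5858 to 7911 CPM at 20 months and 7321 to 15354 CPM at 13 months.

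Few genes passed the main test, and nearly all of them were lower at 20 months. Both traits depended on the method, since DESeq2 gave 823 genes, 247 higher and 576 lower. Of 19497 genes tested, 58 passed (0.297%), 5 of them higher (0.0256%) and 53 lower (0.272%) at 20 months, by the quasi-likelihood test of edgeR with Benjamini-Hochberg adjustment over all genes, which gave every adjusted p below. When a log2 fold change of 1 or more in size and a receiver operating characteristic area from 0.8 upward were also required, the limits of the study's methods, 55 genes were called (0.282%), 5 higher and 50 lower. In all 58 genes the libraries of the 2 ages did not overlap, as was so for 1306 of all genes tested (6.7%). At an unadjusted p under 0.05 there were 1460 genes higher and 1790 lower, and the median log2 fold change over all genes was 0.01. The 58 genes lay on many chromosomes, with at most 6 on any of them, and 15 had a gene symbol while 43 were gene models without one. The number that passed depended on single libraries: 10 without the 20-month replicate 14, 6 without replicate 22, 8 without replicate 23 and 36 without replicate 24, and 18, 5 and 12 without the 13-month replicates 1, 2 and 3. The number rose to 68 without the 20-month replicate 25 and to 64 without the 13-month replicate 4. It was 30 without both libraries that stood apart, 0 in the sham libraries alone (3470 at an unadjusted p under 0.05) and 102 in the 0 min libraries alone.

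**Figure D1:**
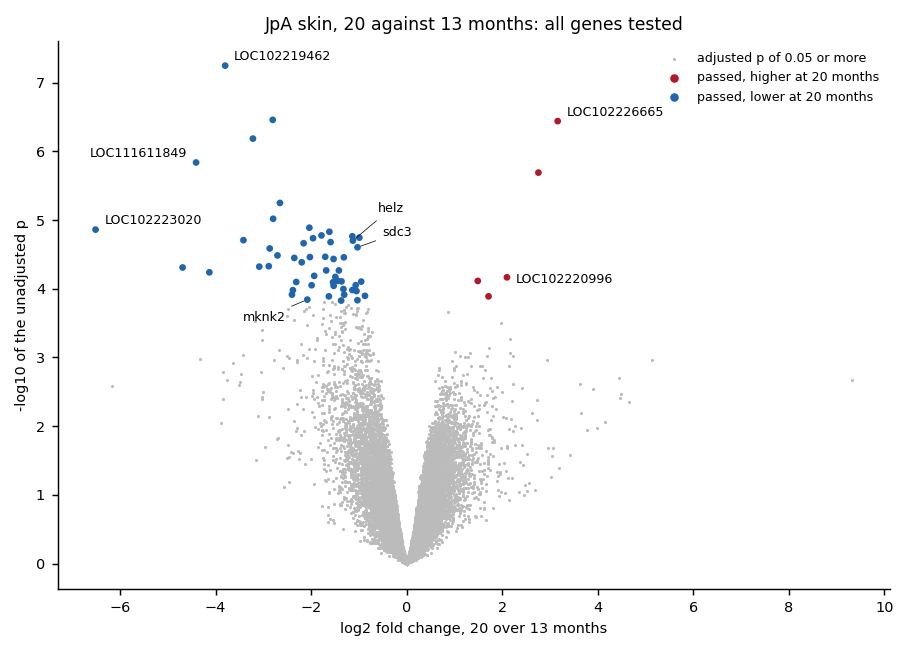
Log2 fold change, 20 over 13 months (horizontal axis), against the -log10 of the unadjusted p (vertical axis) for the 19497 genes tested in JpA skin, 1 point per gene, with passed genes coloured by direction. The 53 passed genes that were lower lie to the left and the 5 that were higher to the right.

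Regulators of transcription and RNA made up the first group of named genes, and all 6 fell at 20 months. Of these, rbpj, helz and zbtb18, and sdc3 below, were outside the rule of the 10 largest folds and were added after their values were seen, so that every called gene with a symbol and at least 1 CPM on average is given. The most abundant was ankrd11, a chromatin regulator that binds histone deacetylases (chr4:20440198-20553512), with 64.0, 91.5, 86.3, 126 and 63.7 CPM in the 20-month libraries and 276, 292, 256 and 216 CPM in the 13-month libraries. Its log2 fold change was -1.59 ± 0.22 (SE, adjusted p = 0.0223), and every 20-month library lay under every 13-month one. The transcription factor rbpj, through which Notch receptors act on DNA (chr14:10949744-11001202), had 40.6, 51.6, 42.7, 57.2 and 30.1 CPM at 20 months and 102, 103, 96.2 and 90.1 CPM at 13 months (log2 fold change -1.14 ± 0.19, adjusted p = 0.0417). The 13-month libraries of rbpj were close together and all above the 20-month ones. The RNA helicase helz (chr5:25051291-25114442) had 34.1, 34.1, 37.5, 48.7 and 35.5 CPM at 20 months and 85.5, 89.6, 77.8 and 78.5 CPM at 13 months, a log2 fold change of -1.12 ± 0.16 (adjusted p = 0.0223). Replicate 24 was the highest of the 20-month libraries for helz and still far under the 13-month ones.

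The other regulators were scarce transcripts. The zinc-finger factor st18 of the Myt1 family (chr6:17449716-17497469) had 0.483, 0.854, 0.433, 0.357 and 1.11 CPM at 20 months and 4.02, 3.27, 4.40 and 1.86 CPM at 13 months (log2 fold change -2.38 ± 0.40, adjusted p = 0.0417). It was the largest fall among called genes with a symbol, and the 13-month replicate 4 was the lowest of its group. The SKI/DACH-domain protein skida1 (chr21:13752688-13765610) had 1.48, 2.04, 2.17, 1.89 and 1.78 CPM at 20 months and 6.24, 6.75, 5.34 and 4.70 CPM at 13 months (log2 fold change -1.62 ± 0.22, adjusted p = 0.0223). The zinc-finger repressor zbtb18 (chr22:20207257-20217850) had 7.27, 6.13, 8.36, 7.28 and 5.58 CPM at 20 months and 13.7, 13.5, 15.6 and 15.2 CPM at 13 months (log2 fold change -1.07 ± 0.18, adjusted p = 0.0384). Both genes were tightly grouped within each age, with a clear gap between the ages.

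Signalling and immune genes formed the second group. The regulatory subunit of phosphoinositide 3-kinase, pik3r1 (chr8:22642684-22665785), which couples insulin and growth factor receptors to that enzyme, fell to 168, 133, 110.1, 164 and 117 CPM at 20 months, against 258, 297, 469 and 401 CPM at 13 months (log2 fold change -1.36 ± 0.22, adjusted p = 0.0365). The kinase mknk2, which phosphorylates the translation factor eIF4E (chr9:5528695-5539673), had 277, 218, 124, 282 and 288 CPM at 20 months and 589.9, 799.9, 1856 and 772 CPM at 13 months (log2 fold change -2.08 ± 0.36, adjusted p = 0.0499). Its 13-month replicate 3, a library that stood apart, was more than any other library of either age. The chemokine receptor cxcr4, which guides leukocytes and other cells toward CXCL12 (chr7:22842381-22844280), had 26.6, 19.0, 18.6, 19.7 and 32.9 CPM at 20 months and 46.4, 62.7, 83.2 and 49.3 CPM at 13 months (log2 fold change -1.37 ± 0.24, adjusted p = 0.0499). The GTPase-activating protein tagap of activated T cells (chr15:8049044-8067047) had 29.3, 21.3, 23.7, 32.3 and 18.3 CPM at 20 months and 54.2, 64.7, 71.2 and 58.5 CPM at 13 months (log2 fold change -1.31 ± 0.19, adjusted p = 0.0266). For both immune genes the 13-month replicate 3 was again the highest library, and the ages did not overlap. The neuropeptide precursor tac1, which encodes substance P (chr13:25940851-25944608), had 0.724, 0.823, 0.758, 0.964 and 0.504 CPM at 20 months and 3.64, 4.10, 2.12 and 2.45 CPM at 13 months (log2 fold change -2.02 ± 0.30, adjusted p = 0.0266). Levels of tac1 were low in all 9 libraries, and those of 20 months lay in a narrow band under those of 13 months.

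Cell surface and adhesion genes were the third group. The heparan sulfate proteoglycan sdc3 (chr13:23218180-23271638) had 97.0, 99.0, 106, 131 and 105 CPM at 20 months and 227, 218, 220.5 and 213 CPM at 13 months (log2 fold change -1.03 ± 0.15, adjusted p = 0.0241). It had the smallest standard error of the 14 named genes, with the 13-month libraries nearly level. The cadherin-binding catenin arvcf (chr12:28409055-28670192) had 10.3, 14.8, 6.88, 12.6 and 8.54 CPM at 20 months and 27.4, 27.4, 26.3 and 23.9 CPM at 13 months (log2 fold change -1.31 ± 0.22, adjusted p = 0.0456). The membrane-anchored TGF-beta co-receptor cd109 (chr15:5002336-5017929) had 9.55, 9.30, 8.53, 10.8 and 9.89 CPM at 20 months and 17.1, 33.7, 37.0 and 20.5 CPM at 13 months (log2 fold change -1.49 ± 0.24, adjusted p = 0.0359). The spread of cd109 was narrow at 20 months and wide at 13 months. None of the 14 genes turned its direction in any of 23 other settings, but each lost its call in some of them. These settings refit the same libraries or parts of them, in which the ages did not overlap for these genes. Kept direction is thus no independent support.

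**Figure D2:**
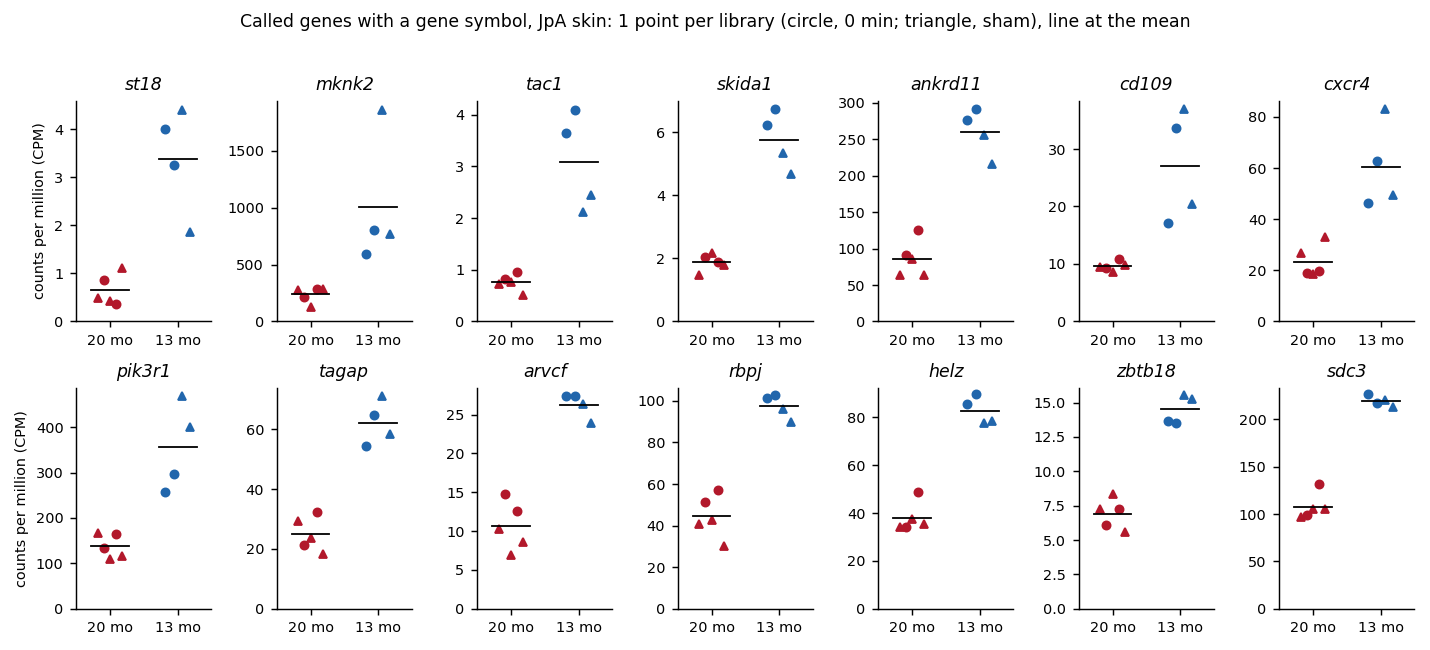
CPM (vertical axes) of the 14 called genes with a gene symbol and at least 1 CPM on average, in 20-month (left) and 13-month (right) JpA skin. There is 1 point per library (circles for 0 min, triangles for sham), with a line at the mean. In each panel every 20-month library lies under every 13-month library, as for ankrd11 with at most 126 CPM at 20 months and at least 216 CPM at 13 months.

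No gene with a symbol passed in the upward direction, and the gene table gives no product names for the 43 gene models, so the following were chosen after their values were seen. LOC102226665 (chr13:9771670-9778720) rose to 229, 246, 112, 173 and 134 CPM at 20 months, against 20.6, 19.4, 14.7 and 25.2 CPM at 13 months (log2 fold change 3.16 ± 0.29, adjusted p = 0.00236). LOC102220996 (chr7:19507348-19531382) had 16.9, 48.6, 34.1, 34.4 and 38.6 CPM at 20 months and 8.07, 4.45, 8.78 and 10.9 CPM at 13 months (log2 fold change 2.10 ± 0.34, adjusted p = 0.0359). These, with LOC102234501 (2.76), LOC102223289 (1.72) and LOC102227738 (1.49 on the log2 scale), were the 5 genes that rose. LOC102219462 (chr11:32212509-32250873) fell to 47.9, 45.6, 37.0, 55.3 and 42.1 CPM at 20 months, against 539.8, 529, 1061 and 408 CPM at 13 months, a log2 fold change of -3.80 ± 0.29 with the smallest adjusted p of all genes (0.0011). The largest fall was that of LOC102223020 (chr20:11076869-11081643), with 6.31, 2.13, 3.60, 4.03 and 9.52 CPM at 20 months and 137, 323, 1321 and 85.8 CPM at 13 months (log2 fold change -6.51 ± 0.87, adjusted p = 0.0223). Its 13-month libraries spanned a wider fold among themselves than the gap to the 20-month libraries. In 24-month JpA skin LOC102223020 had 6.76 to 833 CPM.

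Some of the gene models that fell were neighbours. On chromosome 18, LOC111612040 (11916221-11917833), LOC111612044 (11919178-11920512) and LOC102219061 (11924477-11927591) had log2 fold changes of -2.87, -3.42 and -3.08. On chromosome 17, LOC111611849 (18089355-18091035) and LOC111611850 (18095372-18097086) had -4.41 and -2.89. In all 5 the 13-month replicate 3 was the highest library and the 13-month replicate 2 the second, as for LOC111611849 with 1.72, 1.28, 1.19, 0.999 and 1.65 CPM at 20 months and 12.3, 31.2, 58.2 and 14.7 CPM at 13 months. Neighbours of this kind can be near copies that share reads, and whether they do was not tested.

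The gene lists were set beside all genes tested, where 0.297% passed. Among 47 lists with a measured member, only pik3r1 in the insulin list, cxcr4 in the inflammation list and rbpj in the Notch list passed, so the lists are described by their medians and by members at an unadjusted p under 0.05, where 7.49% of all genes were higher and 9.18% lower. Immediate early genes had the most negative median, -0.99 over 24 genes, with 1 member higher and 12 lower at an unadjusted p under 0.05. The mean log2 CPM of the list was 4.02, 4.01, 4.17, 3.86 and 5.30 in the 20-month libraries and 4.25, 4.57, 6.73 and 5.07 in the 13-month libraries. The sham replicates 25 and 3, both standing apart, were the highest of their ages, and the median was -0.26 without the 13-month replicate 3. The Krüppel-like factor klf2, a flow- and quiescence-linked regulator, had 75.5, 73.1, 101, 93.0 and 65.6 CPM at 20 months and 357, 412, 191 and 111 CPM at 13 months (log2 fold change -1.71 ± 0.34, adjusted p = 0.0701). Its relative klf6 had 200.7, 240.4, 185, 237 and 202 CPM at 20 months and 383, 344, 371 and 414.5 CPM at 13 months (log2 fold change -0.83 ± 0.15, adjusted p = 0.0538). Both were without overlap and missed the threshold. By contrast fosb, a subunit of AP-1 outside the rule of 4 genes per list and chosen after its values were seen, had 0.862, 0.945, 2.03, 0.964 and 7.63 CPM at 20 months and 1.03, 4.23, 596 and 114 CPM at 13 months (log2 fold change -6.17 ± 1.58, adjusted p = 0.144). The fold of fosb rested on the 2 sham libraries of 13 months.

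Genes that respond to glucocorticoids, the hormones of the stress axis, had a median of -0.79 over 10 genes, 0 higher and 4 lower at an unadjusted p under 0.05, or -0.43 without the 13-month replicate 3 and -0.36 without both libraries that stood apart. The transcription factor cebpd had 289.6, 183.5, 248, 179.6 and 668 CPM at 20 months and 906, 1208, 2069 and 485 CPM at 13 months (log2 fold change -1.90 ± 0.48, adjusted p = 0.141). The kinase sgk1, which regulates ion transport, had 90.7, 103, 65.3, 95.0 and 106 CPM at 20 months and 116, 117, 290.1 and 168.5 CPM at 13 months (log2 fold change -0.91 ± 0.28, adjusted p = 0.189). The highest cebpd and sgk1 values were those of the 13-month replicate 3. The clock list had a median of -0.51 over 13 genes, 2 higher and 5 lower at an unadjusted p under 0.05. The clock repressor per1 had 20.8, 98.6, 21.5, 137 and 24.5 CPM at 20 months and 167, 160.1, 138 and 125 CPM at 13 months (log2 fold change -1.29 ± 0.56, adjusted p = 0.285). At 20 months the 0 min replicates 22 and 24 were high and the 3 sham libraries low, while at 13 months both kinds were high. For the light-inducible per2, with 33.3, 18.1, 29.15, 27.1 and 39.7 CPM at 20 months and 36.4, 39.4, 108 and 104 CPM at 13 months, the high libraries were the 13-month sham ones (log2 fold change -1.29 ± 0.36, adjusted p = 0.164). With no hour in these labels, the part of sampling time in the clock genes was not tested.

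Lists of scales, keratinocytes, collagens, matrix and melanophores also had medians under 0, while laminins and basement membrane had 0.03 over 17 genes (0 higher, 1 lower at an unadjusted p under 0.05), which lay between -0.17 and 0.14 when 1 library was left out. Scale and osteoblast genes had -0.62 over 11 genes, 1 higher and 5 lower at an unadjusted p under 0.05. The homeobox factor dlx5 had 56.0, 52.5, 41.3, 56.2 and 26.5 CPM at 20 months and 88.6, 100.6, 71.9 and 81.0 CPM at 13 months (log2 fold change -0.88 ± 0.23, adjusted p = 0.144). The ages did not overlap for dlx5, and the 20-month replicate 25 was its lowest library. The list median was -0.39 without both libraries that stood apart. Keratinocyte genes had -0.61 over 12 genes, 0 higher and 5 lower at an unadjusted p under 0.05, and tgm1, a transglutaminase that crosslinks the cornified envelope of mammals, had 43.3, 55.6, 30.7, 57.6 and 60.5 CPM at 20 months and 68.8, 66.6, 536.5 and 72.9 CPM at 13 months (log2 fold change -1.91 ± 0.62, adjusted p = 0.202). That fold was carried by the 13-month replicate 3, without which the list median was -0.35.

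Collagens had a median of -0.36 over 24 genes (0 higher, 6 lower at an unadjusted p under 0.05) and the matrix crosslinking list -0.22 over 19 genes (0 and 7), or -0.06 for the matrix list with no scaling. The small proteoglycan dcn, which organises collagen fibrils, had 399.9, 341.5, 293, 301 and 396 CPM at 20 months and 516, 512, 532 and 553 CPM at 13 months (log2 fold change -0.61 ± 0.16, adjusted p = 0.145). The fibrillar collagen chain col1a2 had 593, 904, 515, 563 and 677 CPM at 20 months and 987, 621, 819.8 and 3878 CPM at 13 months (log2 fold change -1.28 ± 0.49, adjusted p = 0.244). For dcn the ages were apart, whereas col1a2 overlapped and its mean at 13 months rested on replicate 4. Melanophore genes had a median of -0.38 over 15 genes, 1 higher and 3 lower at an unadjusted p under 0.05. The melanin enzyme tyrp1 had 14.7, 15.65, 12.6, 17.1 and 14.1 CPM at 20 months and 29.5, 30.55, 21.1 and 24.3 CPM at 13 months (log2 fold change -0.83 ± 0.17, adjusted p = 0.0806), while rab32, which carries enzymes to the melanosome, had 28.6, 27.5, 31.7, 20.4 and 26.7 CPM at 20 months and 17.55, 20.0, 17.95 and 16.2 CPM at 13 months (log2 fold change 0.59 ± 0.17, adjusted p = 0.165). The members of this list did not lie on one side.

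**Figure D3:**
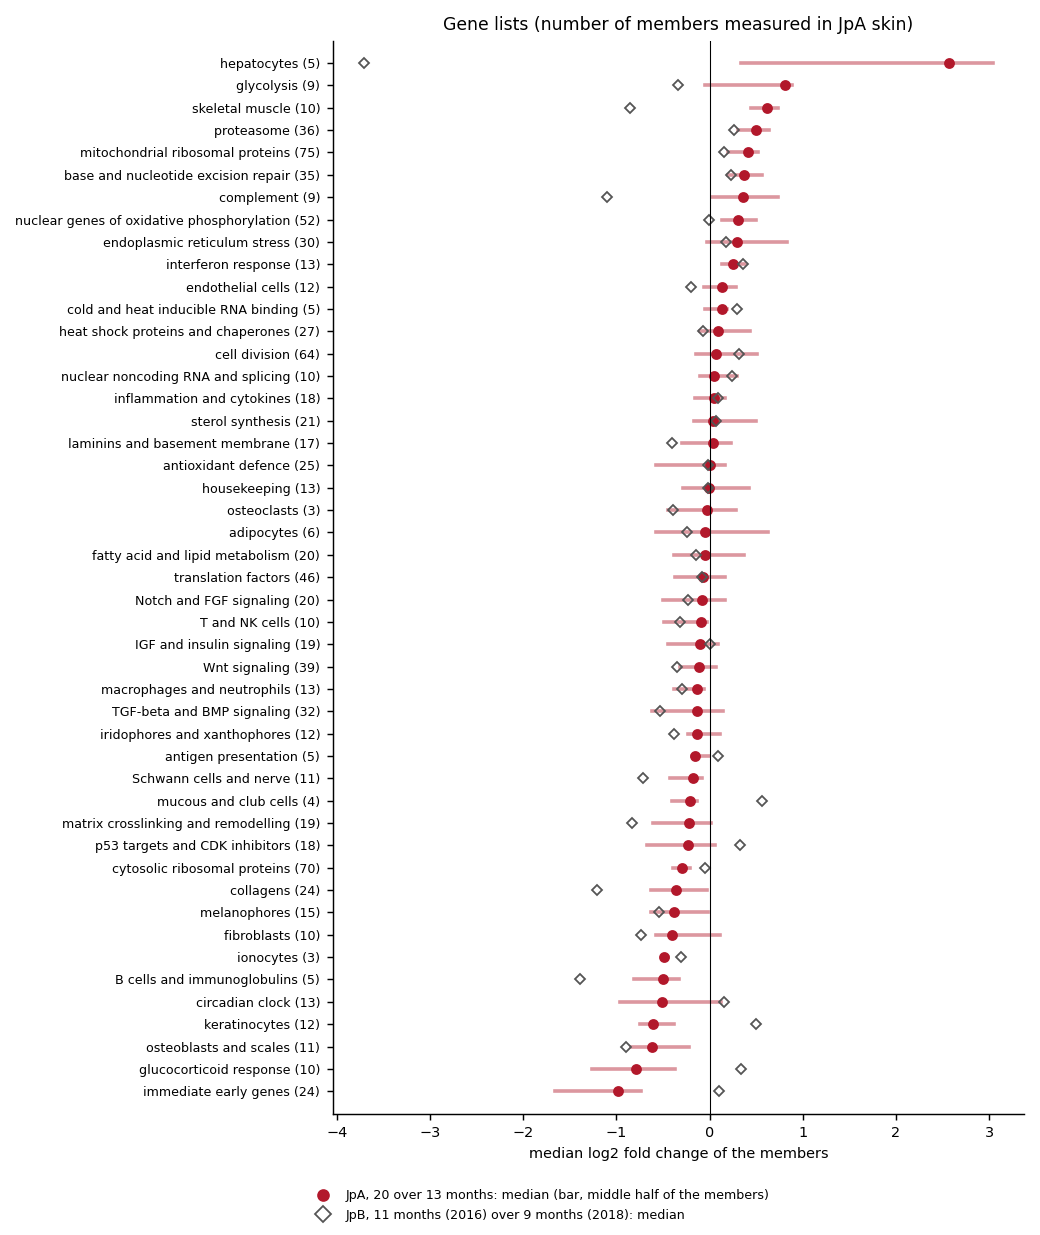
Median log2 fold change of the members of each gene list (horizontal axis), 20 over 13 months in JpA skin (filled points, bar between the quartiles of the members) and 11 over 9 months in JpB skin (open diamonds), with the number of members measured beside each name. Immediate early genes lie at -0.99 in JpA and 0.10 in JpB, and collagens at -0.36 in JpA and -1.20 in JpB.

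Lists of the proteasome, endoplasmic reticulum stress, mitochondrial ribosome, oxidative phosphorylation and glycolysis had medians above 0, while that of fatty acid and lipid metabolism was -0.05 over 20 genes (3 higher, 0 lower at an unadjusted p under 0.05), or 0.13 with no scaling. The proteasome, which degrades ubiquitin-tagged proteins, had 0.50 over 36 genes, 16 higher and 1 lower at an unadjusted p under 0.05. Its ATPase subunit psmc6 had 48.8, 37.4, 59.4, 25.3 and 66.5 CPM at 20 months and 23.4, 24.7, 21.0 and 29.9 CPM at 13 months (log2 fold change 0.94 ± 0.27, adjusted p = 0.167). The 20-month sham libraries were the 3 highest for psmc6, and the 0 min replicate 24 overlapped the 13-month range. The endoplasmic reticulum stress list had a median of 0.30 over 30 genes (8 higher, 1 lower), and the folding enzyme pdia4 had 114, 79.0, 147, 52.7 and 153 CPM at 20 months and 32.2, 39.2, 25.7 and 67.4 CPM at 13 months (log2 fold change 1.41 ± 0.37, adjusted p = 0.146). Here too the 3 sham libraries of 20 months were the highest.

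Mitochondrial ribosomal proteins had a median of 0.42 over 75 genes, 17 higher and 0 lower at an unadjusted p under 0.05, with 69 of them above 0. The member mrps27 had 11.9, 9.12, 12.1, 7.49 and 14.1 CPM at 20 months and 5.70, 6.15, 4.01 and 6.045 CPM at 13 months (log2 fold change 1.00 ± 0.24, adjusted p = 0.117). Nuclear genes of oxidative phosphorylation had 0.30 over 52 genes (14 higher, 1 lower), glycolysis 0.81 over 9 genes (4 and 0) and excision repair of DNA 0.37 over 35 genes (9 and 1). The repair scaffold xrcc1 had 22.3, 17.5, 27.6, 14.1 and 21.5 CPM at 20 months and 13.5, 11.4, 8.27 and 12.35 CPM at 13 months (log2 fold change 0.86 ± 0.23, adjusted p = 0.151). Both mrps27 and xrcc1 were apart between the ages and missed the threshold. Cytosolic ribosomal proteins went the other way, with a median of -0.29 over 70 genes, 68 of them under 0 and 0 higher and 12 lower at an unadjusted p under 0.05, or -0.12 with no scaling. Cell division genes had a median of 0.07 over 64 genes, of which 6 were higher and 0 lower at an unadjusted p under 0.05, against 7.49% and 9.18% of all genes, and the median was between -0.15 and 1.29 when 1 library was left out, the highest without the 13-month replicate 4. That library had a mean log2 CPM of 4.37 over the list, against 2.43, 2.17 and 1.72 in the other 13-month libraries and 3.55, 3.35, 3.00, 3.08 and 3.60 at 20 months.

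**Figure D4:**
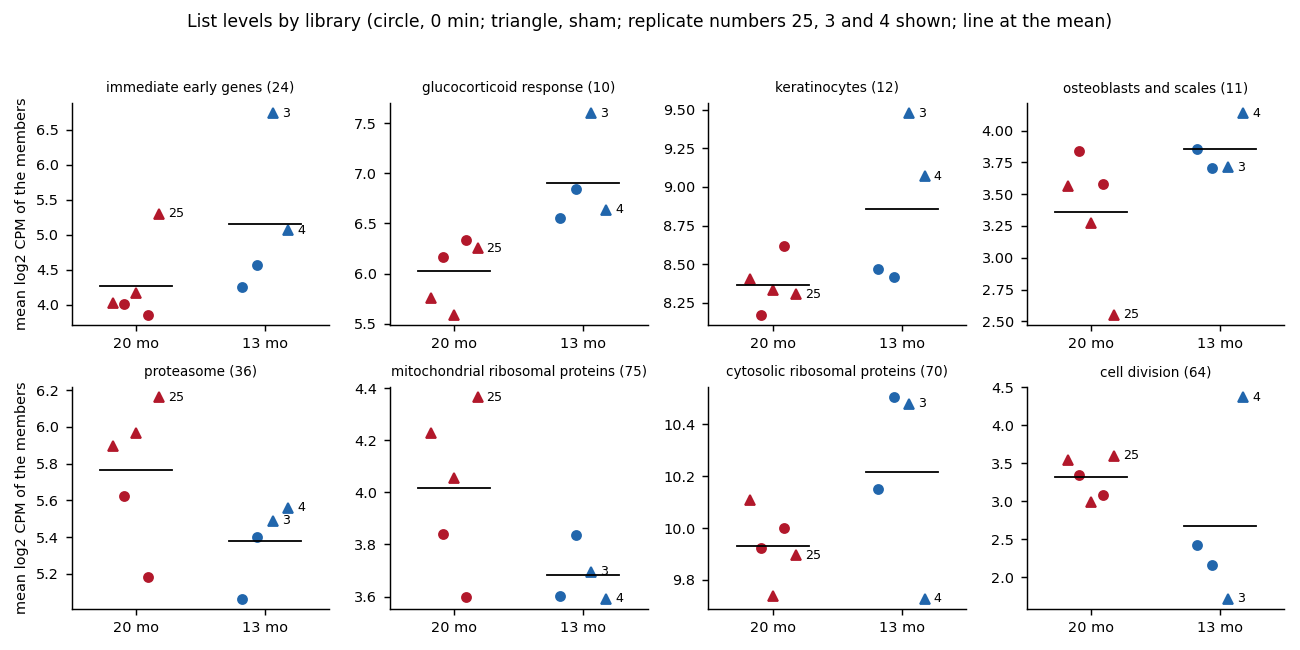
Mean log2 CPM of the members of selected gene lists (vertical axes) in 20-month (left) and 13-month (right) JpA skin, 1 point per library (circles, 0 min; triangles, sham; replicates 25, 3 and 4 numbered) with a line at the mean. For immediate early genes the 13-month replicate 3 stands at 6.73 and the 20-month replicate 25 at 5.30, above the other libraries of their ages.

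Signalling lists had medians from -0.23 to -0.08, where that of all genes was 0.01, with some members near the threshold. The p53 target plk3, a stress-responsive kinase, had 43.7, 46.4, 57.7, 62.7 and 74.25 CPM at 20 months and 119.6, 127, 169 and 98.1 CPM at 13 months (log2 fold change -1.17 ± 0.21, adjusted p = 0.0538). The Wnt agonist rspo2 had 1.55, 1.25, 0.893, 1.035 and 1.21 CPM at 20 months and 3.19, 4.10, 3.81 and 2.37 CPM at 13 months (log2 fold change -1.50 ± 0.27, adjusted p = 0.0526). Both were apart between the ages without passing. The medians were -0.23 for p53 targets, -0.10 for insulin signaling, -0.12 for Wnt, -0.13 for TGF-beta and BMP and -0.08 for Notch and FGF, and with no scaling, which moved the median of all genes to 0.17, those of the last 4 lists were above 0.

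Markers of tissues next to or outside the skin were as follows. Skeletal muscle genes summed to 624 to 2430 CPM at 20 months and 403 to 1128 CPM at 13 months, with a median log2 fold change of 0.61 over 10 genes, 0 of which had an unadjusted p under 0.05. Hepatocyte genes summed to 18.5 to 50.2 CPM at 20 months and 20.6 to 29.5 CPM at 13 months, with a median log2 fold change of 2.57 over 5 genes (2 higher and 0 lower at an unadjusted p under 0.05) that was 1.06 without the 20-month replicate 23. Fibrinogen fgb had 11.8 CPM in the 20-month replicate 23 and at most 1.50 CPM in the other 8 libraries. Summed levels of macrophage and neutrophil genes were 689 to 1287 CPM at 20 months and 865 to 987 CPM at 13 months, and those of T and NK cell genes 147 to 384 CPM at 20 months and 259 to 376 CPM at 13 months. The part of muscle, liver or immune cells in the results was not tested. Lists of erythrocyte, mitochondrially encoded and replication-dependent histone genes matched no gene symbol and were not analysed here.

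The 16 libraries of 24-month JpA skin, with the earlier label year and 8 hours of sacrifice, give a further age without a test. Of the 53 genes lower at 20 months, 44 had a 24-month median under the lowest 13-month library, as 21.8% of all genes tested did, and 22 had one within the 20-month range, as 78.9% did. In 19 of the 53, every 24-month library lay under every 13-month library, as was so for 1.83% of all genes. The 13-month libraries are those that chose the 53 genes, so these counts are no independent support. For sdc3 the range was 213 to 227 CPM at 13 months, 97.0 to 131 CPM at 20 months and 71.2 to 125 CPM at 24 months, so the 2 later ages overlapped. For cd109 it was 17.1 to 37.0 CPM at 13 months, 8.53 to 10.8 CPM at 20 months and 13.7 to 24.6 CPM at 24 months. The 24-month range of cd109 thus overlapped that of 13 months and lay above that of 20 months. In 21 of the 58 genes the hour means at 24 months spanned a larger fold than the 2 ages did. The share over all genes was not computed, so this count shows nothing particular to the 58 genes. The kinase mknk2 had hour means from 102 CPM at hour 20 to 512 CPM at hour 8, cxcr4 from 22.2 CPM at hour 2 to 64.9 CPM at hour 8, and helz from 37.7 CPM at hour 14 to 47.6 CPM at hour 11. Hour means were thus far apart for mknk2 and cxcr4 and close for helz. Each hour mean is of 2 libraries, and only the lowest and highest means are given. At hour 8 the libraries had 660 and 364.5 CPM for mknk2 and 92.8 and 37.0 CPM for cxcr4. LOC102223020, the largest fall, had hour means from 7.01 CPM at hour 17 to 448 CPM at hour 8. Those of LOC102220996, which rose, went from 2.90 CPM at hour 11 to 70.7 CPM at hour 8. With no hour in the labels of 20 and 13 months, the part of the hour in these folds was not tested.

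LOC102226665 split the 24-month libraries in a further way. The 8 libraries with a 1-letter fish label (hours 2, 8, 14 and 20) had 105 to 364 CPM (median 232), and the 8 with a 2-letter label (hours 5, 11, 17 and 23) had 16.2 to 25.3 CPM (median 23.0). The 20-month libraries and the 13-month libraries all have 1-letter labels, and they had 112 to 246 CPM at 20 months and 14.7 to 25.2 CPM at 13 months. In JpB skin it had 20.9 to 23.4 CPM at 11 months and 20.0 to 22.9 CPM at 9 months. Its level thus followed neither age alone nor the length of the label alone across these libraries.

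**Figure D5:**
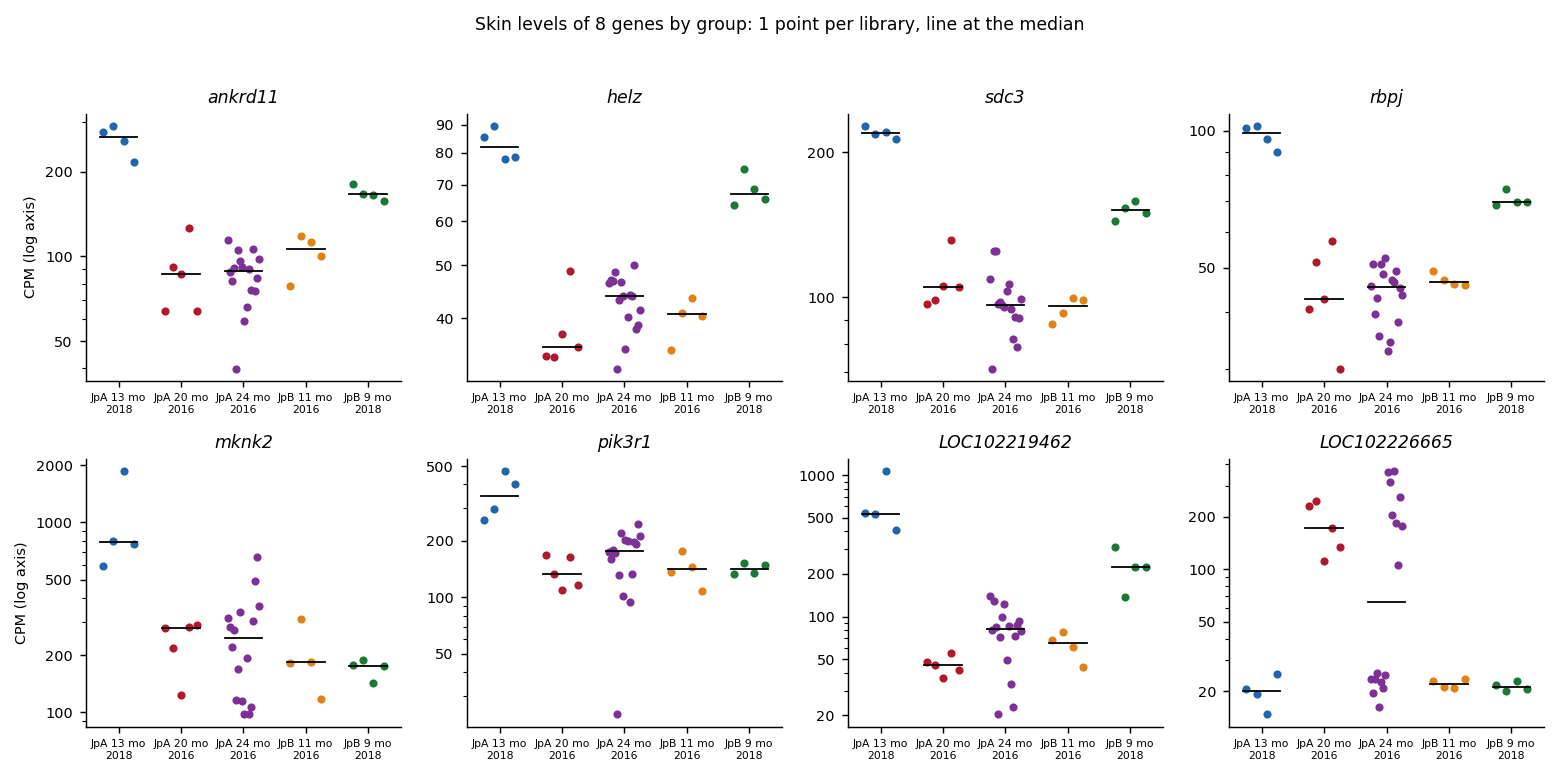
CPM (log axis) of 8 genes in JpA skin of 13, 20 and 24 months and in JpB skin of 11 months (earlier label year) and 9 months (later label year), 1 point per library with a line at the median. For sdc3 the JpA libraries of 20 and 24 months lie at 71.2 to 131 CPM and those of 13 months at 213 to 227 CPM.

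Skin of JpB of the same label years carries the change of year with a much smaller step in age, 11 months (earlier year) against 9 months (later year), 4 libraries each. The 11-month libraries are all 0pt in name, taken as 0 min, while the 9-month ones are 2 of 0 min and 2 of sham. In JpB the time word is thus not balanced over the years. The sample names of the JpB groups also begin differently in each year, and their label months are not those of the JpA libraries. The part of these was not tested. In a fit of both strains, the JpA and JpB contrasts differed in 1118 of 21051 genes (5.31%), 544 with a higher and 574 with a lower fold in JpA, and the JpB contrast itself passed in 3067 genes (14.6%). The JpB libraries varied less, with a biological coefficient of variation of 0.18 and 0.17, against 0.36 at both JpA ages, and the fit shares 1 spread over both strains, so that 512 genes were higher and 982 lower in its JpA contrast. The difference passed in 550 to 724 genes without any 1 of the JpB replicates 27 to 33 and in 1755 without the 20-month JpA replicate 24. Of the 58 genes, 33 differed between the strains' contrasts, 23 passed in JpB with the same sign and 4 with the other sign. The 58 genes were chosen by their folds in the JpA libraries that the difference also uses, so the 33 are no independent support. Of the 53 lower genes, 22 were lower in every JpB library of 11 months than in every one of 9 months, where 19.8% of all genes were. Another 6 were higher in every one, and the share of all genes in that direction was not computed. Across the genes, Spearman's correlation between the JpA and JpB log2 fold changes was 0.15, a description over 21051 genes that are not independent.

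Some named genes were lower in the earlier label year in both strains. In both, the fish of that year were also the older ones, so year and age cannot be told apart. The proteoglycan sdc3 had 88.2 to 99.95 CPM in JpB of 11 months and 144 to 159 CPM in JpB of 9 months (log2 fold change -0.66, adjusted p = 0.00121). The helicase helz had 35.05 to 43.5 CPM in JpB of 11 months and 64.3 to 74.8 CPM in JpB of 9 months (log2 fold change -0.77, adjusted p = 0.00118). For sdc3, helz, rbpj, ankrd11, arvcf and st18 every skin library of the earlier label year lay under every one of the later year. The share of all genes with this pattern was not computed. These genes were chosen by their JpA folds, which are part of the pattern, so it is no independent support. The earlier year held JpA of 20 and 24 months and JpB of 11 months, the later year JpA of 13 months and JpB of 9 months. The others of the 8 named genes lower in every JpB library of 11 months were tac1 and skida1, for which some 24-month JpA libraries reached into the later-year range. For these 8 genes the difference between the strains' contrasts did not pass, with adjusted p from 0.0588 for ankrd11 to 0.962 for arvcf.

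For mknk2, cxcr4, pik3r1, tagap and cd109 the contrasts differed between the strains, while for the neuropeptide tac1 the difference was -0.28 (adjusted p = 0.705). The kinase mknk2 had 118 to 309 CPM in JpB of 11 months and 142 to 188 CPM in JpB of 9 months, and its JpA fold was lower than its JpB fold by 2.30 ± 0.47 on the log2 scale (SE, adjusted p = 0.0142). The receptor cxcr4 had 14.2 to 31.0 CPM in JpB of 11 months and 15.3 to 19.6 CPM in JpB of 9 months (difference of the folds -1.67 ± 0.33, adjusted p = 0.0118). For pik3r1 the difference was -1.36 ± 0.27 (adjusted p = 0.0112), for tagap -1.45 ± 0.27 (adjusted p = 0.00793) and for cd109 -1.17 ± 0.29 (adjusted p = 0.0271). In all 5 genes the JpB libraries of the 2 years overlapped. The 5 genes were chosen by their JpA folds, on which the differences also rest, so the differences are no independent support for those folds. LOC102220996 went opposite ways, with a log2 fold change of 2.10 in JpA and -2.69 in JpB (difference 4.79, adjusted p = 0.00228).

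The genes with a symbol and at least 1 CPM were ranked by the adjusted p of the strain difference, and of the first 5 in each direction 9 passed in JpB, all but klf6 (adjusted p = 0.102). The basement membrane chain lama2 averaged 72.1 ± 4.59 CPM at 20 months and 61.6 ± 9.54 CPM at 13 months in JpA, and 67.0 ± 10.4 CPM at 11 months and 149 ± 32.8 CPM at 9 months in JpB (SD, n = 5, 4, 4 and 4). The integrin itga10, the complement protein c9, the protease inhibitor wfdc1 and the protocadherin pcdh12 likewise had a higher fold in JpA, by 1.16, 3.74, 1.94 and 1.64 on the log2 scale. Genes with a lower fold in JpA were the progestin receptor paqr5 (-2.68), the lipid transporter mfsd2a (-1.92), the tetraspanin tspan13 (-1.55), tmem79 (-1.53) and klf6 (-1.20). The JpA folds of paqr5 (-1.38) and klf6 (-0.83) passed, while those of mfsd2a (-0.61), tspan13 (-0.38) and tmem79 (-0.43) did not. Of these, klf6 averaged 213 ± 24.6 CPM at 20 months and 378 ± 29.1 CPM at 13 months in JpA, and 268 ± 61.4 CPM at 11 months and 209 ± 4.78 CPM at 9 months in JpB (SD, same n). Over all genes 2.58% had a higher and 2.73% a lower fold in JpA. Among the lists, 8 of 26 collagens, 6 of 12 complement genes, 5 of 19 matrix genes, 5 of 7 hepatocyte genes, 3 of 17 laminin and basement membrane genes and 3 of 10 fibroblast genes had a higher fold in JpA. A lower fold in JpA was found for 5 of 24 immediate early genes, 3 of 18 p53 targets and 2 of 10 glucocorticoid genes, and of 32 TGF-beta and BMP genes 4 had a higher and 1 a lower fold. The collagen and matrix lists had medians under 0 in both strains, -0.36 and -0.22 in JpA and -1.20 and -0.83 in JpB. The hepatocyte list had a median of -3.71 in JpB, so these liver genes stood at other levels between the JpB groups.

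The 2 liver libraries of 13 months have titles that name JpB, while their strain field and sample names give JpA, and they were grouped by strain field and sample name. Liver of JpA at the same ages (4 libraries of 20 months and 2 of 13 months) gave 393 of 20787 genes that passed (1.89%), 55 higher and 338 lower. The 20-month liver libraries are 1 of sham and 3 of 0 min and both 13-month ones are sham, so the liver contrast is not balanced for the time word, whose part was not tested. A pair of the 20-month liver libraries, replicates 3 and 4, carry the same fish letter and differed far beyond counting error, so they were kept apart, and the letters of the 20-month liver recur in the 20-month skin. The skin and liver contrasts differed in 40 genes (0.192%), 36 of them with a higher fold in skin, and of the 58 skin genes only LOC102236895 and LOC102224120 were among them. The transcription factor foxo3 averaged 119 CPM at 20 months and 127 CPM at 13 months in skin, and in liver 43.1 CPM at 20 months and 504 CPM at 13 months, a difference of the folds of 3.46 (adjusted p = 0.00366). The genes lurap1l, rasef, jmy and mob2 differed in the same direction, by 3.19, 7.80, 2.81 and 2.47. In liver rasef averaged 0 CPM at 20 months and 0.62 CPM at 13 months, so the size of its difference rests on levels near the floor. In skin it averaged 33.0 CPM at 20 months and 38.3 CPM at 13 months. The count was 8 and 25 without the 13-month liver replicates 6 and 5, 140 and 74 without the 20-month liver replicates 1 and 4, 14, 15, 16 and 23 without the 13-month skin replicates 1, 2, 3 and 4, and 26 and 15 without the 20-month skin replicates 14 and 23. With 2 liver libraries of 13 months, a difference that did not pass does not show that the tissues behaved alike.

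The fold change also varied with the length of the gene in the genome. The median log2 fold change was 0.09, 0.07, 0.04, -0.00 and -0.13 over 5 equal groups of genes from the shortest to the longest, with median spans of 2960, 5918, 10069, 17866 and 47746.5 bp. Spearman's correlation between span and fold was -0.15 in JpA and -0.14 in JpB, both between libraries that differ in label year and read length. Genes that passed were in every group, 17, 11, 11, 10 and 9 of them in that order. In the longest group were arvcf, ankrd11, helz, sdc3, rbpj and st18, which span 47754 to 261138 bp. These are the named genes that lay lower in every skin library of the earlier label year, and they were singled out by their values. The other called genes with a symbol and at least 1 CPM span 1900 to 23102 bp. Of those, tac1 (3758 bp) and skida1 (12923 bp) were also lower in every JpB library of 11 months. So were some shorter gene models without a symbol, such as LOC102216621 (chr22:4589223-4595020). The part of gene length in these folds was not tested.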

How the data were processed

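RNA of skin and liver was sequenced, with libraries made by a kit for mRNA. The authors aligned reads with TopHat2 and counted them per gene with featureCounts, per the submitters' processing notes. Versions are not given in the sources used here. The deposited values are whole read counts for 27242 gene models. Names and coordinates are those of the RefSeq gene table of assembly X_maculatus-5.0-male. Columns were matched to samples by the names in the labels. Genes were kept by filterByExpr (smallest count 10), scaled by TMM and tested with the quasi-likelihood test of edgeR 4.0.16 (limma 3.58.1, R 4.3.3), 20 over 13 months, with Benjamini-Hochberg adjustment; DESeq2 1.42.0 was an alternative. CPM carry the TMM scaling, and log2 CPM a prior count of 2. The differences from JpB skin and from JpA liver were interaction terms of 4-group fits. Scripts were tested on simulated data.

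By the rule, named genes were the 10 called genes of largest fold in each direction that carry a symbol and average 1 CPM or more, the 4 members per list with the smallest adjusted p, and 5 genes in each direction of each difference test. The 4 other called genes of that kind, the gene models without one and LOC102226665's split by fish label were added after values were seen, as was fosb. The rule's part for gene models with product names could not be used, since the gene table holds none. Members and the 50 lists were chosen with earlier results of these data known. For the same reason list members were matched by gene symbol only, so medians and sums leave out listed genes without a matching symbol. Of the listed symbols, 10 of 30 were measured for skeletal muscle and 5 of 20 for hepatocytes. The 13-month libraries are deeper than the 20-month ones, so scarce genes are less precise at 20 months; thinning to the smallest total was among the alternatives.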

Additional observations from a re-analysis of the deposited data

Results flagged for a closer look

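Of 142 groups of values from 4 or 5 libraries, 7 held a library far from the rest of its group, and chance gives about 1 in 20. In 20-month skin these were helz (48.7 CPM) and sdc3 (131 CPM) in replicate 24, both the highest of 5 libraries, and the immediate early genes in replicate 25 (mean log2 CPM of 5.30). In 13-month skin they were the Schwann cell and nerve genes in replicate 4 (3.75), the cold- and heat-inducible RNA-binding genes in replicate 1 (8.13), the fatty acid and lipid genes in replicate 2 (4.96) and the Notch and FGF genes in replicate 4 (4.08), each a mean log2 CPM.

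The JpA and JpB skin contrasts differed in 1118 genes and the skin and liver contrasts of JpA in 40, each by the test of the difference itself. Differences of JpA minus JpB log2 fold changes that passed were, among gene models, -7.81 for LOC102223020, -4.61 for LOC111611849, -3.89 for LOC111611850, -2.72 for LOC111612044, -2.38 for LOC102219061, -2.08 for LOC111612040, -1.97 for LOC102219462, 3.10 for LOC102226665 and 4.79 for LOC102220996. Among the called genes with a symbol they were -2.30 for mknk2, -1.67 for cxcr4, -1.45 for tagap, -1.36 for pik3r1 and -1.17 for cd109. Among genes with a symbol and at least 1 CPM, the 5 of smallest adjusted p in each direction, they were 3.74 for c9, 1.94 for wfdc1, 1.64 for pcdh12, 1.38 for lama2 and 1.16 for itga10, and -2.68 for paqr5, -1.92 for mfsd2a, -1.55 for tspan13, -1.53 for tmem79 and -1.20 for klf6. Between skin and liver the differences were 7.80 for rasef, 3.46 for foxo3, 3.19 for lurap1l, 2.81 for jmy and 2.47 for mob2. That of rasef rests on liver levels near the floor, 0 CPM at 20 months and 0.62 CPM at 13 months.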

How the results depend on the processing

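The 58 genes that passed kept their direction in each of up to 23 settings in which they were refitted, and 770 of 1331 pairs of gene and setting still passed. The ages did not overlap in any of the 58 genes, and the settings refit the same libraries or parts of them. Kept direction is thus no independent support. Of 58 passed and 55 called, the numbers were 38 passed with no scaling factor, 130 and 113 with 0 min or sham as a covariate, 823 (247 higher, 576 lower) and 489 by DESeq2, 94 and 85 with same-letter libraries summed, 0 and 0 in the sham libraries alone, 102 and 102 in the 0 min libraries alone, and 262 and 178 with all 25 JpA skin libraries in the fit. Leaving out 1 library gave 5 to 68 passed and 5 to 65 called. Chosen after seeing the data, leaving out both libraries that stood apart gave 30 and 29, with 17 of the 58 genes shared, and limma voom with quality weights gave 1268 (437 higher, 831 lower) and 590. The difference from JpB was 2253 genes by DESeq2 and 550 to 1755 when 1 library was left out. The difference from liver was 529 genes by DESeq2 and 8 to 140 when 1 library was left out. Among the 118 named list members with an unadjusted p under 0.05, 6 changed sign in the 0 min libraries alone, gpi (-0.20), hadhb (-0.11), acadvl (-0.0517), fgg (-0.0404), lamb3 (0.0349) and foxo4 (0.0606). The cause of these changes was not tested. No paired analysis was possible because the 20- and 13-month groups, and those of JpB, share no replicate numbers. The 20-month skin and liver share fish letters, though no source states that a letter is 1 fish, and with the letter as replicate block, chosen after seeing the data, the difference from liver was 47 genes by limma voom (correlation within letters -0.07), against 58 with no block. Depth and spread limit the precision: the median standard error of a log2 fold change was 0.27.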
